A study of Homo sapiens with 16 samples.

Results

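TP53I3 (ENSG00000115129), also called PIG3, was followed as 1 gene of the 26410 in the expression tables of a neuroblastoma experiment. It was chosen by name with its values already known, so its levels, its changes with doxorubicin and the differences between genotypes are descriptions and carry no test. SH-SY5Y is a neuroblastoma cell line that came from bone marrow, and doxorubicin is an anthracycline that damages DNA through topoisomerase II. Poly(A) RNA was sequenced from 4 single-cell clones, with 2 libraries for each clone and treatment, 16 in all. Clones KO11 and KO28 are labelled TRPM2 KO; they came from CRISPR editing of the calcium channel gene TRPM2 with a donor that carries GFP and puromycin resistance. Clones Scr13 and Scr16 went through the same procedure with a scrambled guide RNA. Each clone was left untreated or given doxorubicin for 24 hours, at 0.3 µM in the sample labels and the study's methods (the series' design text has 3 µM). Libraries of the same clone and treatment are described as biological replicates; p-values below treat all 4 libraries of a group as replicates, although a genotype is represented by 2 clones.

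TP53I3 is a direct target of the tumor suppressor p53. It was found in a screen for genes that p53 switches on before apoptosis, and its product resembles NADPH quinone oxidoreductases, enzymes that reduce quinones and can give rise to reactive oxygen species. A repeat of short units in the gene has been described as a response element for p53, unlike the paired decamers found at most p53 targets. The gene lies on the minus strand of chromosome 2, from 24077433 to 24085861 (GRCh38, GENCODE 29), and its exons cover 2312 bases.

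The repeat is shown because it sets TP53I3 apart from other transcripts in sequence. Annotated transcripts were searched on both strands for the longest tandem run of the units TGCCC and TGTCC. In TP53I3 the run held 15 copies over 75 bases, 9 of TGCCC and 6 of TGTCC, at chr2:24084343-24084417 on the minus strand, 5′ of the coding sequence and within an exon in 2 of 6 annotated transcripts. The gene with the next longest run was TP53I11 (PIG11), named from the same screen, with 9 copies over 45 bases at chr11:44950782-44950826 on the minus strand. Runs of 3 or more copies were found in 0.119% of 58676 annotated genes, and no other gene reached 9 copies. The first 30 bases of the run are given 5′ to 3′ for each gene, with TGTCC units in capitals and TGCCC units in lower case.
TP53I3: tgcccTGTCCTGTCCtgccctgcccTGTCC
TP53I11: tgccctgccctgcccTGTCCtgccctgccc
A match to these letters is a description of the sequence and not evidence of binding in these cells.

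Expression was read as normalized read counts scaled to library size (CPM), from libraries of 10481177 to 25086085 reads. A gene listed at 0 could still be present at up to 3 reads, which is 0.118 to 0.285 CPM at these depths. The neuroblastoma identity of the libraries was clear from its markers. All 13 of 13 listed genes were in the tables, with a summed level between 8211 and 9682 CPM, STMN2 the most abundant on average over the libraries, and TH, which encodes tyrosine hydroxylase, at 0 reads in 6 libraries. TRPM2 reads were not lower under the KO label. Untreated KO11 had 1.93 and 2.23 CPM of TRPM2 and untreated KO28 had 1.41 and 2.19, whereas untreated Scr13 had 0.118 and 0.115 and untreated Scr16 had 0 in both libraries. Against the 3-read floor averaged over the untreated Scr libraries, mean TRPM2 under the KO label was at least 12-fold higher. After doxorubicin TRPM2 was 1.22 and 1.83 CPM in KO11, 1.37 and 0.658 in KO28, 0.0594 and 0.0631 in Scr13, and 1.33 and 0.390 in Scr16. The edit is described as removing the start of the coding sequence and shifting the reading frame after it, which need not lower reads counted over the gene as a whole. TRPM2 reads therefore do not check the labels, the clones are described as authenticated by RT-PCR and Western blotting, and every genotype direction below rests on the labels. In a principal component analysis of all genes tested, Scr16 doxorubicin replicate 1 stood apart on the third component (44.6, with the next furthest library at -17.2), and it had the fewest reads, 10481177. KO28 untreated replicate 2 stood apart on the fourth component (37.7).

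TP53I3 was present at a similar, moderate level in all 4 untreated clones, and after doxorubicin it was several times higher in both clones labelled TRPM2 KO than in either Scr clone. In untreated cells TP53I3 was 16.0 and 14.6 CPM in Scr13, 18.5 and 17.3 CPM in Scr16, 19.0 and 14.2 CPM in KO11, and 14.4 and 19.8 CPM in KO28. These 8 values overlapped between the labels, and the spread between the 2 libraries of KO11 or of KO28 was as wide as the spread between clones. After doxorubicin TP53I3 was 77.4 and 67.8 CPM in KO11, 54.9 and 65.2 CPM in KO28, 23.6 and 23.3 CPM in Scr13, and 12.8 and 22.7 CPM in Scr16. The 4 treated libraries labelled TRPM2 KO lay above all 12 others, the lowest of them at 54.9 CPM and the highest of the rest at 23.6 CPM. The 12.8 CPM in Scr16 doxorubicin replicate 1 was the lowest value of all 16 libraries; it rested on 135 reads, with a 95% exact Poisson interval of 10.8 to 15.2 CPM that covers counting error only. The other 15 libraries had between 215 and 1210 reads of the gene.

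**Figure D1:**
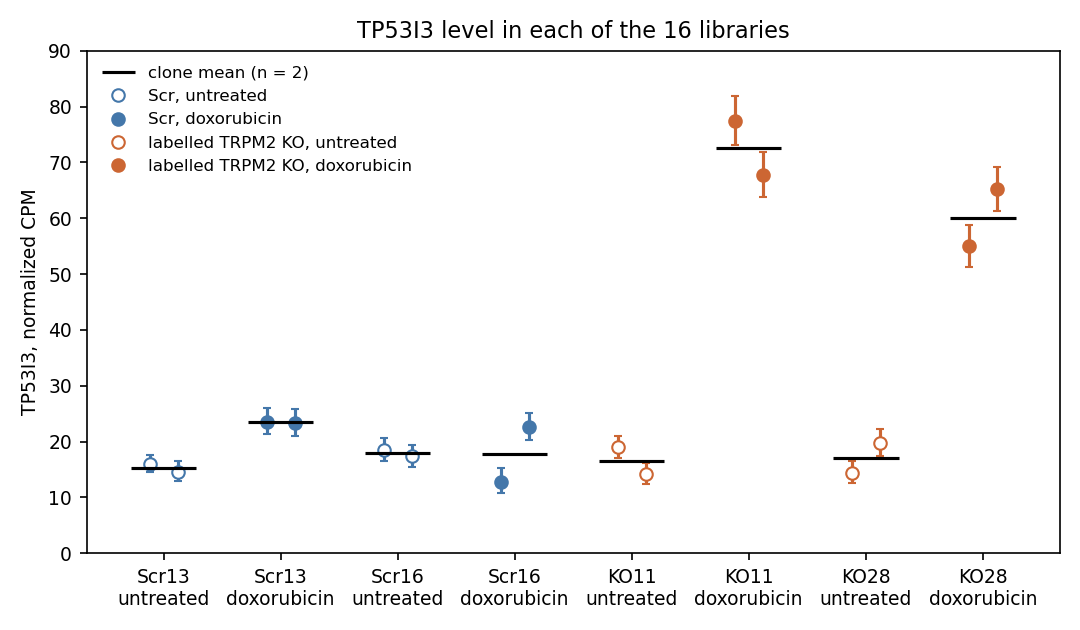
Normalized CPM of TP53I3 in each library, by clone and treatment (open circles untreated, filled circles doxorubicin), with bars for the 95% Poisson interval of the reads and a black line for the mean of the 2 libraries. The 4 treated libraries labelled TRPM2 KO lie between 54.9 and 77.4 CPM, and the other 12 lie between 12.8 and 23.6 CPM.

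The group means were 16.6 ± 1.67 CPM in untreated Scr, 16.8 ± 2.95 CPM in untreated libraries labelled TRPM2 KO, 20.6 ± 5.18 CPM in treated Scr, and 66.3 ± 9.24 CPM in treated libraries labelled TRPM2 KO (SD, n = 4 each). In this order the first 3 levels do not differ beyond their spread and the last stands above them. Per kilobase of exon the same means were 7.18, 7.28, 8.90 and 28.7 CPM. By CPM, without correction for exon length, TP53I3 ranked near the middle of the 15325 genes compared in most libraries. It lay above 38.2 to 49.9% of them there, and above 70.5 to 78.5% in the 4 treated libraries labelled TRPM2 KO. Among 55 other p53 targets it was exceeded per kilobase by 24 in untreated Scr, 29 in untreated libraries labelled TRPM2 KO, 31 in treated Scr and 14 in treated libraries labelled TRPM2 KO. In bulk RNA, fewer cells that make a transcript and less transcript per cell cannot be told apart.

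Mean TP53I3 was 3.94-fold higher with doxorubicin than without it under the KO label, a difference in level of 49.5 CPM, and the treated and untreated values did not overlap. On the log2(CPM + 1) scale, used for all changes that follow, the change was 1.92 with a standard error of 0.13, and 40 of 14513 genes rose by more. In the Scr libraries the means differed 1.24-fold, by 3.99 CPM, and the values overlapped. The log2 change in Scr was 0.26 with a standard error of 0.18, and 2373 of 14378 genes rose by more. Without Scr16 doxorubicin replicate 1 the change in Scr was 0.46.

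Both clones labelled TRPM2 KO were higher after doxorubicin, and the Scr clones differed from each other. The log2 change was 2.08 in KO11, 1.77 in KO28, 0.58 in Scr13 and -0.06 in Scr16, for 2 libraries against 2. All had the same standard error, 0.21, because the spread was estimated over all 16 libraries. The SD of the treated pair was 6.95 CPM in Scr16 and 0.212 CPM in Scr13. In Scr13 both treated libraries lay above both untreated ones. In Scr16 the change hung on which treated library was read, at 0.32 without replicate 1 and -0.45 without replicate 2.

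Between the labels, untreated TP53I3 differed by 0.01 on the log2 scale with a standard error of 0.15 (1.01-fold), within the spread of the libraries. After doxorubicin it was 3.22-fold higher in the libraries labelled TRPM2 KO, a log2 difference of 1.67 with a standard error of 0.16, and 86 of 14572 genes differed by more in that direction. The 4 possible pairs of clones after doxorubicin gave log2 differences of 2.02 (KO11 against Scr16), 1.75 (KO28 against Scr16), 1.59 (KO11 against Scr13) and 1.32 (KO28 against Scr13). Each was larger than the difference within a label, 0.27 for KO11 against KO28 and -0.43 for Scr16 against Scr13. Without Scr16 doxorubicin replicate 1 the difference between labels after doxorubicin was 1.47.

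The difference of the doxorubicin changes, KO label minus Scr, was 1.66 on the log2 scale with a standard error of 0.23, and 9 of 15325 genes had a larger one. In levels the treated-minus-untreated difference was 45.5 CPM larger in the libraries labelled TRPM2 KO. Without Scr16 doxorubicin replicate 1 the log2 difference was 1.46, and without clone Scr13 or clone Scr16 it was 1.98 or 1.34. In limma's test of this difference 3 of 15325 genes, 0.0196%, had an adjusted p under 0.05. TP53I3 was among them, and since the gene was chosen for this contrast nothing is read from that. The others were CXCL12, a chemokine, at 1.98 (adjusted p = 0.0341) and SLIT1, an axon guidance ligand, at -0.71 (adjusted p = 0.0341); they are named because so few genes passed. CXCL12 lost its call in 18 of 28 alternatives (adjusted p up to 0.398) and SLIT1 in 17 of 29 (up to 0.48). CXCL12 was 1.08 ± 0.507 CPM in untreated Scr and 0.356 ± 0.177 CPM in treated Scr, and it was 3.52 ± 0.98 CPM in untreated and 10.9 ± 2.79 CPM in treated libraries labelled TRPM2 KO (SD, n = 4 each).

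Markers of other cell types were read beside these differences. The summed level of 8 fibroblast markers, all 8 in the tables, was 244 ± 68.2 CPM in untreated Scr, 189 ± 24.6 CPM in treated Scr, 395 ± 54.5 CPM in untreated and 390 ± 43.6 CPM in treated libraries labelled TRPM2 KO (SD, n = 4 each). COL3A1 was the most abundant of them in all 8 libraries labelled TRPM2 KO, and THY1 was in 6 of 8 Scr libraries. COL3A1 was 35.1 ± 33.9 CPM in treated Scr, with 83.9 CPM in Scr16 doxorubicin replicate 1, and 189 ± 30.3 CPM in treated libraries labelled TRPM2 KO (SD, n = 4 each). FAP was at 0 reads in 6 of 8 Scr libraries and COL1A2 in 2. Treated sums did not overlap between labels, at 172 to 225 CPM in Scr and 335 to 434 CPM under the KO label. Untreated sums did overlap, at 184 to 340 CPM in Scr and 318 to 444 CPM under the KO label. Under the KO label the sum was similar with and without doxorubicin, and no test of the sum was run. In untreated cells 4 of 7 tested markers were higher under the KO label, where 2.3% of all genes were. After doxorubicin 4 of 6 were, where 4.52% of all genes were. LUM then differed by 3.24, COL3A1 by 2.88, DCN by 2.45 and COL1A1 by 1.51 on the log2 scale. LUM and DCN passed the filter of at least 1 CPM in at least 4 libraries only through the treated libraries labelled TRPM2 KO. Their calls, and the share of 4 of 6, therefore lean on the group where they are high, and nothing is read from them. The COL1A1 call after doxorubicin was lost in 2 of 21 alternatives, and its difference was 0.97 without clone Scr13. With doxorubicin under the KO label DCN rose by 1.22 (limma, adjusted p = 0.00115) and COL1A2 fell by 0.98 (adjusted p = 0.0228, lost in 4 of 16 alternatives), and the other 6 did not pass. The part of the fibroblast markers in the TP53I3 differences was not tested. The 6 epithelial markers summed to between 5.83 and 9.91 CPM as group means. Of 5 blood markers 1, LYZ, was in the tables, and its group means were at most 0.048 CPM.

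Most other p53 targets tested rose with doxorubicin under both labels, and TP53I3 was low among them in Scr and high among them under the KO label. A list of 62 targets was used, 61 of them in the tables. In Scr 43 of 55 tested targets rose and 0 fell, where 6.67% of all 14378 genes rose and 4.94% fell; without clone Scr13 the count was 28. The 43 include the cell death targets FAS and TNFRSF10A. In Scr these passed the filter of at least 1 CPM in at least 4 libraries only through the treated libraries, where they are high. The median log2 change of the targets was 0.94, against -0.01 over all genes, and 47 of the 55 changed by more than TP53I3. In the libraries labelled TRPM2 KO 47 of 55 rose and 0 fell, where 10.1% of all 14513 genes rose and 7.38% fell. Their median was 1.14, against 0.02 over all genes, and 10 of the 55 changed by more than TP53I3. Of the targets, 43 passed under both labels, 4 under the KO label alone (RAP2B, TNFAIP8, ACER2 and FBXO22), 0 in Scr alone and 8 under neither; a call under a single label does not show that the changes differ. In the single clones 38 of 55 rose in Scr13, 34 in Scr16, 43 in KO11 and 43 in KO28, where the share of all 15325 genes that rose was 3.16%, 2.67%, 5.24% and 4.42%.

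**Figure D2:**
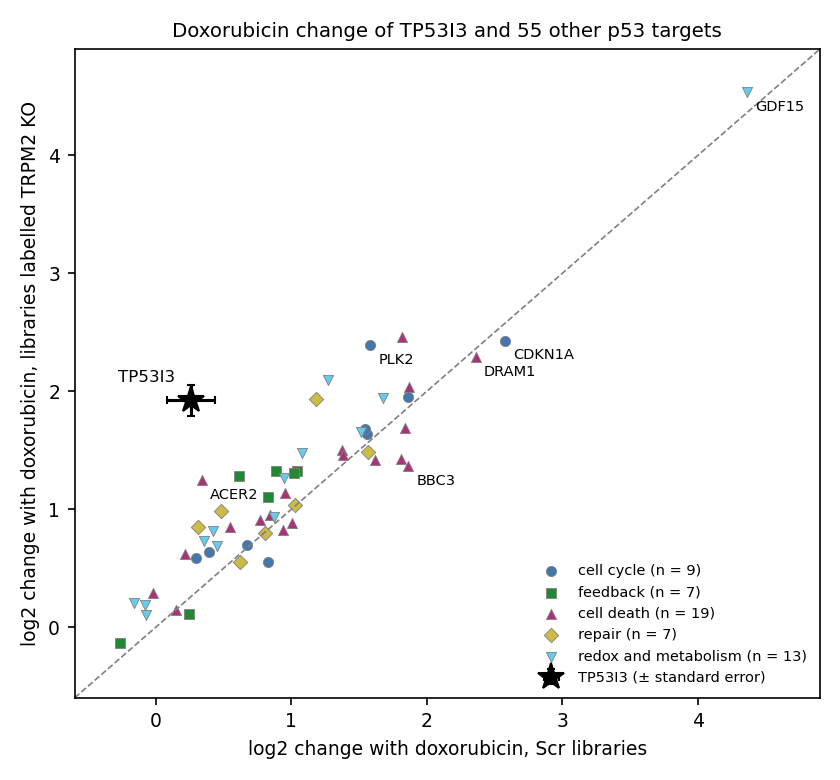
Log2 change with doxorubicin in Scr libraries (horizontal axis) and in libraries labelled TRPM2 KO (vertical axis) for 55 p53 targets by role, with TP53I3 as a star with standard errors; the dashed line marks equal change. The targets lie along the line and TP53I3, at 0.26 and 1.92, lies furthest above it.

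Among cell cycle targets 7 of 9 rose in Scr and 8 of 9 under the KO label. CDKN1A, which encodes the cyclin-dependent kinase inhibitor p21, was 75.1, 46.9, 42.3 and 63.8 CPM in untreated Scr and 340, 365, 304 and 340 CPM in treated Scr. In the libraries labelled TRPM2 KO CDKN1A was 124, 123, 158 and 141 CPM untreated and 788, 739, 677 and 742 CPM treated. No 2 of these 4 groups overlapped, so CDKN1A differed between labels before treatment, where TP53I3 values overlapped. Its log2 change was 2.58 in Scr (limma, adjusted p = 6.14e-10) and 2.43 under the KO label (adjusted p = 2.41e-16). The polo-like kinase PLK2 rose by 1.58 in Scr (limma, adjusted p = 1.86e-05) and by 2.39 under the KO label (adjusted p = 6.38e-11).

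Among feedback genes, which act back on p53, 5 of 7 rose under each label. MDM2, the ubiquitin ligase that degrades p53, rose by 0.89 in Scr (limma, adjusted p = 1.02e-06) and by 1.33 under the KO label (adjusted p = 2.35e-11). Its level went from 105 ± 9.08 to 196 ± 16.2 CPM in Scr and from 129 ± 11.3 to 324 ± 27 CPM under the KO label (SD, n = 4 each). Among cell death genes 15 of 19 rose in Scr and 17 of 19 under the KO label. The death receptor gene FAS rose by 1.81 in Scr (limma, adjusted p = 0.000162) and by 2.46 under the KO label (adjusted p = 5.78e-08). FAS was under 1 CPM in all 4 untreated Scr libraries and passed the filter in Scr only through the treated ones. Nothing is read from its call in Scr. The autophagy gene DRAM1 rose by 2.36 in Scr (limma, adjusted p = 2.04e-05) and by 2.29 under the KO label (adjusted p = 6.21e-09). BBC3, which encodes the BH3 protein PUMA, rose by 1.86 in Scr (limma, adjusted p = 4.72e-08) and by 1.37 under the KO label (adjusted p = 3.36e-08).

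Among DNA repair genes 6 of 7 rose in Scr and 7 of 7 under the KO label, led by the nucleotide excision repair gene DDB2 in Scr at 1.56 (limma, adjusted p = 1.15e-07) and by RRM2B, a subunit of ribonucleotide reductase, under the KO label at 1.94 (adjusted p = 7.44e-11). Among redox and metabolic targets, the group nearest to TP53I3 in function, 10 of 13 rose under each label. GDF15, a stress cytokine, had the largest change of all targets, 4.36 in Scr (limma, adjusted p = 6.14e-10) and 4.53 under the KO label (adjusted p = 2.41e-16). FDXR, which encodes ferredoxin reductase, rose by 1.67 in Scr (limma, adjusted p = 3.48e-07) and by 1.94 under the KO label (adjusted p = 3.17e-09). SESN2, a stress-induced sestrin, rose by 1.52 in Scr (limma, adjusted p = 1.36e-05) and by 1.65 under the KO label (adjusted p = 7.59e-11).

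The levels of these targets also differed between labels. The signed log2 difference lay above that of TP53I3 for 46 of 53 in untreated cells and for 0 of 55 after doxorubicin. In untreated cells 14 of 53 were higher in the libraries labelled TRPM2 KO and 0 were lower, where 2.3% of all 14364 genes were higher and 2.54% lower. That count was 9 without Scr16 untreated replicate 1, 6 without clone Scr16, 7 with no filter on low genes and 21 by DESeq2. Their median log2 difference was 0.28 against -0.01 over all genes. By role, 10 of 17 cell death targets and 2 of 9 cell cycle targets were higher. The counts were 1 of 7 for feedback, 1 of 7 for repair and 0 of 13 for redox and metabolic targets. DRAM1 differed most, at 1.59 (limma, adjusted p = 0.00152, lost in 1 of 20 alternatives), and CDKN1A was higher by 1.27 (adjusted p = 3.36e-06), while TP53I3 differed by 0.01. After doxorubicin 36 of 55 were higher under the KO label and 0 were lower, where 4.52% of all 14572 genes were higher and 4.17% lower; without clone KO11 the count was 19. Their median was 0.52 against 0.01 over all genes. None of the 55 differed by more than TP53I3 (1.67); the nearest were DRAM1 at 1.52 (limma, adjusted p = 2.62e-06) and CDKN1A at 1.13 (adjusted p = 1.98e-09). By role, 6 of 9 cell cycle, 5 of 7 feedback, 14 of 19 cell death, 4 of 7 repair and 7 of 13 redox and metabolic targets were higher.

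The difference of the doxorubicin changes was smaller in every other target tested than in TP53I3. None of the 55 passed limma's test of this difference, and 13 (23.6%) had an unadjusted p under 0.05, against 1148 of all 15325 genes (7.49%); edgeR's quasi-likelihood test and DESeq2 on recovered reads also called 0, each with 13 at an unadjusted p under 0.05. The median was 0.17 against 0.02 over all genes. The highest was ACER2, an alkaline ceramidase, at 0.91 with a standard error of 0.34 (limma, adjusted p = 0.528), followed by the metabolic gene GLS2 at 0.83 (adjusted p = 0.657). The lowest was BBC3 at -0.50 with a standard error of 0.19 (limma, adjusted p = 0.54).

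Genes named from the same screen as TP53I3 changed by less than it did under the KO label. Of 6 listed, 5 were in the tables and 4 could be tested. TP53I11, the gene with the second longest repeat, rose by 0.89 in Scr (limma, adjusted p = 0.0021) and by 0.60 under the KO label (adjusted p = 0.00033). It was also higher under the KO label in untreated cells, by 0.61 (limma, adjusted p = 0.00721), and its difference of changes was -0.29 (adjusted p = 0.82) where that of TP53I3 was 1.66. EI24, an endoplasmic reticulum protein gene, rose by 0.47 under the KO label (limma, adjusted p = 8.68e-05) and was higher there after doxorubicin by 0.34 (adjusted p = 0.00402). LITAF rose by 0.28 under the KO label (limma, adjusted p = 0.0117). Calls were lost in 2 of 19 alternatives for TP53I11 in Scr (adjusted p up to 0.0932) and in 3 of 21 for it in untreated cells (up to 0.121), in 2 of 19 for LITAF (up to 0.238), and in 1 of 21 for EI24 between treated labels (up to 0.135). PTGES, a prostaglandin E synthase, passed no test, with changes of -0.05 in Scr and 0.34 under the KO label.

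TP53I3 was then set beside 12 other quinone reductases and members of the medium-chain reductase family, of which 11 could be tested. VAT1 rose by 0.33 in Scr (limma, adjusted p = 0.00262) and by 0.34 under the KO label (adjusted p = 0.00156), each lost in 1 of 19 alternatives, so 1 of 11 rose in Scr, where 6.67% of all genes rose, and 2 of 11, VAT1 and NQO1, rose under the KO label, where 10.1% did; these shares are near the background. NQO1, a quinone reductase and a target of the stress factor NRF2, was 17.0, 10.0, 12 and 20.7 CPM in untreated Scr and 7.42, 7.13, 10.9 and 13.6 CPM in treated Scr. In the libraries labelled TRPM2 KO NQO1 was 15.6, 17.3, 12.2 and 12 CPM untreated and 16.4, 27.5, 20.5 and 22.1 CPM treated. Treated values did not overlap between labels, untreated values did, and the highest untreated library under the KO label lay above the lowest treated one. The log2 change of NQO1 was -0.56 in Scr (limma, adjusted p = 0.137) and 0.56 under the KO label (adjusted p = 0.0211), a call lost in 6 of 19 alternatives (adjusted p from 0.0108 to 0.274), with a change of 0.35 without clone KO28. After doxorubicin NQO1 was higher under the KO label by 1.09 (limma, adjusted p = 0.000902), and its difference of changes was 1.12 with an adjusted p of 0.207. The other 9 members passed no test in any of these comparisons. Over the 11, the median log2 change was 0.04 in Scr and 0.25 under the KO label, and the median difference between labels after doxorubicin was 0.04. Per kilobase, 3 of the 11 had a higher level than TP53I3 in each of the other 3 groups and 1 in the treated libraries labelled TRPM2 KO.

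**Figure D3:**
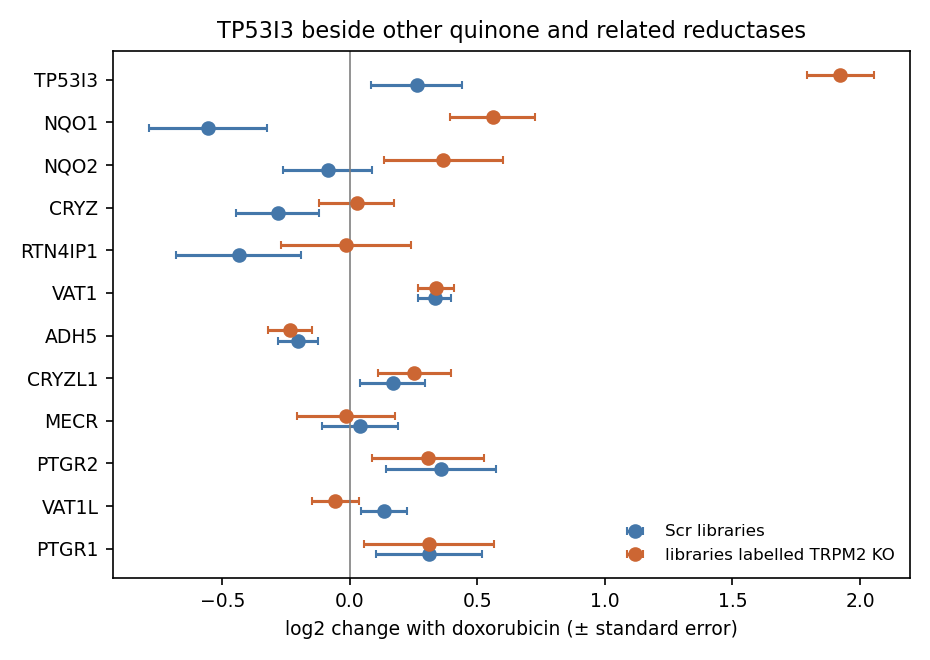
Log2 change with doxorubicin (horizontal axis, bars for the standard error) of TP53I3 and 11 other quinone and related reductases, in Scr libraries and in libraries labelled TRPM2 KO. The changes of the other 11 lie between -0.56 and 0.56 under either label, and TP53I3 reaches 1.92 under the KO label.

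Cofactors and regulators of p53 changed by less than TP53I3 under the KO label. Of 11 genes tested in this list, 3 rose and 0 fell with doxorubicin in Scr, where 6.67% of all genes rose and 4.94% fell, and 4 rose and 2 fell under the KO label, where 10.1% rose and 7.38% fell. MDM2, described above as a feedback target, is also in this list and is among the genes that rose under each label. PPP1R13L (iASPP), an inhibitor of p53, rose by 0.59 in Scr (limma, adjusted p = 0.0103) and by 0.71 under the KO label (adjusted p = 0.00091). ZNF385A, a zinc finger protein that binds p53, rose by 0.73 in Scr (limma, adjusted p = 0.00185) and by 0.50 under the KO label (adjusted p = 0.0115), and it was higher under the KO label by 1.07 in untreated cells (adjusted p = 0.000131) and by 0.85 after doxorubicin (adjusted p = 2.83e-05). CSE1L (CAS), a nuclear export receptor that has been tied to the TP53I3 promoter, fell by 0.22 under the KO label (limma, adjusted p = 0.0455) and changed by -0.13 in Scr (adjusted p = 0.22). PPP1R13B (ASPP1) rose by 0.39 (limma, adjusted p = 0.0171) and TP53BP2 (ASPP2) fell by 0.24 (adjusted p = 0.0387) under the KO label. Of 19 alternatives under the KO label, the call was lost in 9 each for CSE1L and TP53BP2, in 4 each for ZNF385A and PPP1R13B, and in 1 for PPP1R13L; in Scr it was lost in 1 each for PPP1R13L and ZNF385A.

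The genes around TP53I3 were few, and 0 of those tested rose with doxorubicin, where 6.67% of all genes rose in Scr and 10.1% under the KO label, so a count of 0 is near the background. Within 500 kb of the gene 27 others are annotated, 17 were in the tables, and 10 or 11 could be tested, depending on the comparison. None passed the test between labels or the test of the difference of changes. ATAD2B fell by 0.42 in Scr (limma, adjusted p = 0.00926) and KLHL29 fell by 0.51 under the KO label (adjusted p = 0.00838), calls lost in 2 of 19 and 1 of 19 alternatives. FAM228B (chr2:24076526-24169640) overlaps TP53I3 on the other strand and shares 80 exon bases with it. Whether reads were counted by strand is not given in the sources used here, so reads from the shared bases could belong to either gene. FAM228B was between 15.9 and 26.5 CPM in Scr libraries and between 11.4 and 24.3 CPM in libraries labelled TRPM2 KO, with treated values overlapping between labels, and its log2 difference between labels after doxorubicin was -0.21 (limma, adjusted p = 0.508). SF3B6, a splicing factor gene 990 bases away, differed by 0.16 (limma, adjusted p = 0.274), and PFN4, the nearest tested gene on the other side, differed by -0.71 at a mean level of 1.22 CPM (adjusted p = 0.174).

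**Figure D4:**
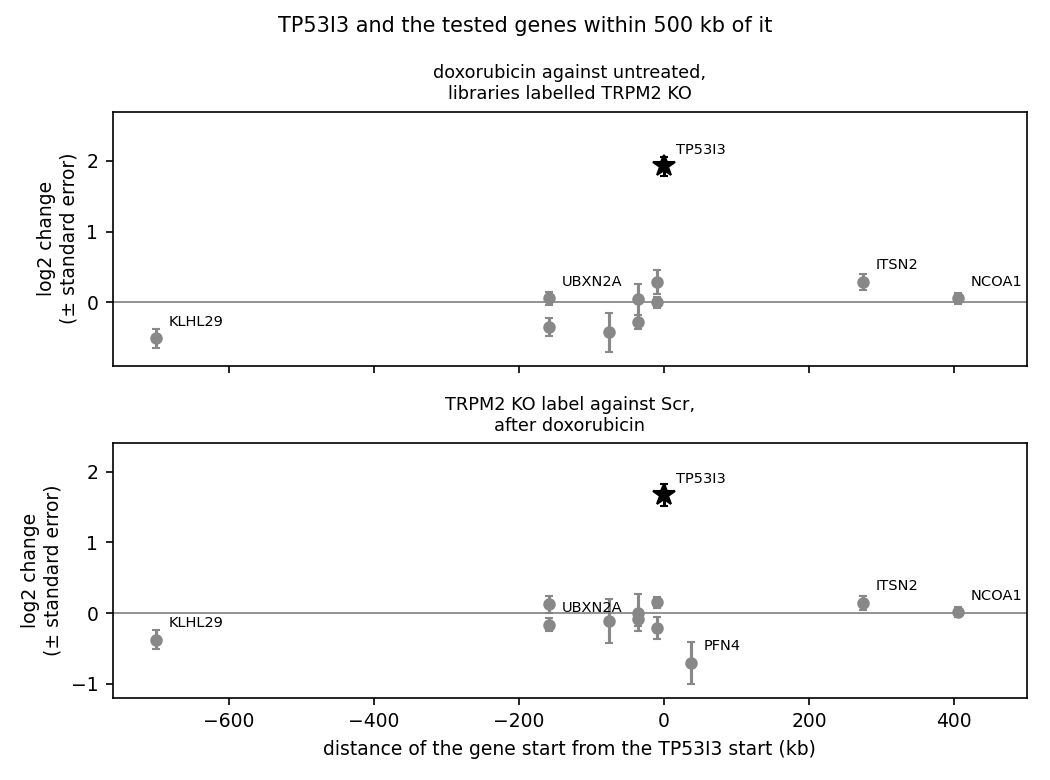
Log2 change (vertical axis, bars for the standard error) of TP53I3 and the tested genes whose bodies reach within 500 kb of it, against the distance of each gene's start from the TP53I3 start in kb, for doxorubicin under the KO label (upper panel) and for the KO label against Scr after doxorubicin (lower panel). TP53I3 stands at 1.92 and 1.67, and no neighbour exceeds 0.29 in the upper panel or 0.16 in the lower.

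The genes whose levels ran most like that of TP53I3 were found by Pearson correlation over the 16 libraries, among 15324 other genes. The 10 highest were SRC, SYT8, IKBIP, BLCAP, INSRR, EPPK1, CSPG4, COL13A1, the long intergenic RNA ENSG00000226965 and FLJ16779, with r from 0.939 to 0.915. The 16 points fall into the same 4 groups for every gene, so r is a description of a shared group pattern. COL13A1 and ENSG00000226965 reached 1 CPM only in the 4 treated libraries labelled TRPM2 KO and entered the comparison through that group alone. Nothing is read from their place among the 10. FLJ16779 was also low outside that group, at most 1.32 CPM. SRC, the tyrosine kinase, went from 155 ± 8.7 to 181 ± 22.5 CPM in Scr and from 170 ± 13.2 to 251 ± 29.2 CPM under the KO label (SD, n = 4 each). SYT8, a synaptotagmin, was at most 1.04 CPM in every other library and 10.2, 6.74, 7.32 and 2.63 CPM in the treated libraries labelled TRPM2 KO. INSRR, the insulin receptor-related receptor, was 63.9, 43.8, 63.2 and 56.1 CPM in those 4 libraries and between 17.8 and 39.6 CPM in the others. The likeness depended on the measure: 4 of the 10 stayed among the 10 highest with a pseudocount of 0.1, 1 with Spearman's rho, and 0 with the untreated or the treated libraries alone. None of the 10 was in the p53 target list, whose 55 tested members had a median r of 0.80 with TP53I3, from -0.041 for RCHY1 to 0.912 for FBXO22. The median over all genes was 0.02.

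**Figure D5:**
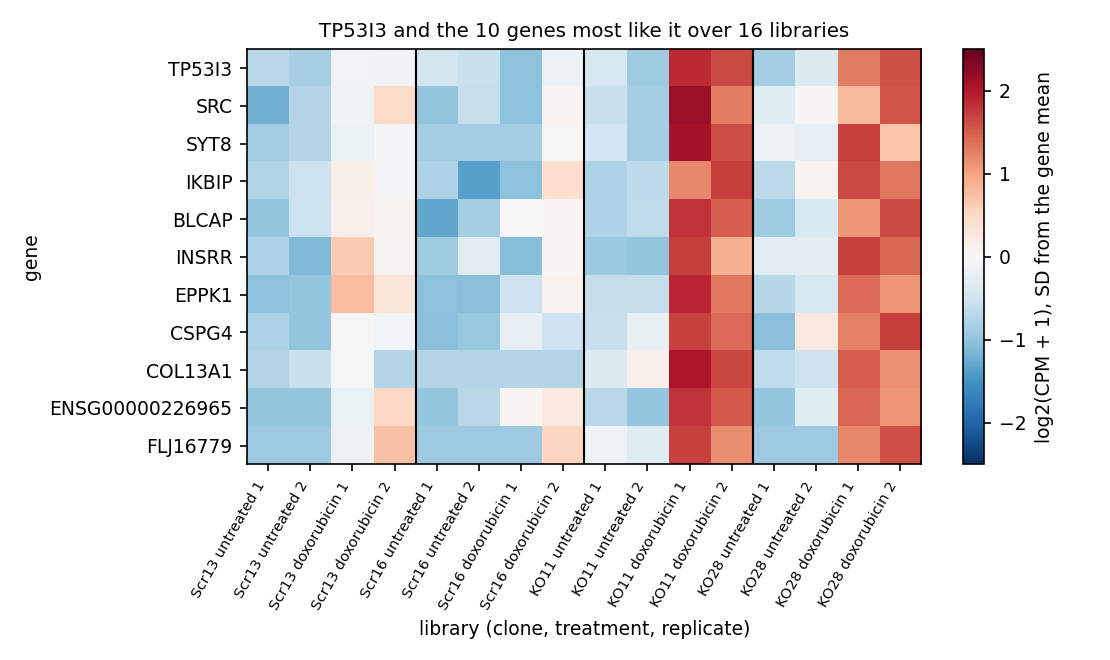
Scaled log2(CPM + 1) (colour, in SD from each gene's mean) of TP53I3 and the 10 genes with the highest Pearson correlation with it, in the 16 libraries. All 11 rows are highest in the 4 treated libraries labelled TRPM2 KO.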

How the data were processed

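Directional poly(A) RNA libraries were aligned with HISAT2 2.1.0 to GRCh38 and counted with HTSeq per the labels; the annotation and the strand setting are not given in the sources used here. The authors deposited edgeR normalized CPM, a signal per gene scaled by library size and normalization factors (0.974 to 1.03), in 2 tables (untreated and doxorubicin) that share 1 set of factors. Values were whole multiples of the value of 1 read for 100% of entries (tolerance 0.001 of a read), so read counts were recovered from the deposited values. The tables' own fold changes, p-values, q-values and ranking were not used. Depth was 10481177 to 25086085 reads per library, median 16037366.5.

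Tests used limma 3.58.1 (R 4.3.3, eBayes with trend) on log2(normalized CPM + 1), for genes with at least 1 CPM in at least 4 of the libraries fitted, with Benjamini-Hochberg adjustment over all genes tested and an adjusted p under 0.05. A log2 change on this scale understates the change of low genes. Each genotype was compared between treatments (8 libraries), labels within each treatment (8 libraries), and the difference of changes and the clones over all 16 libraries. The scripts were tested on simulated data. Alternatives were other filters, pseudocounts of 0.5 and 2 (also 0.1 for TP53I3), and edgeR 4.0.16 and DESeq2 1.42.0 on recovered reads. Others were library size scaling, a replicate block, and leaving out each library or clone. Clone was also fitted as a fixed block for the doxorubicin changes by genotype and their difference. Between labels it was fitted as a random block. For TP53I3 only the pseudocounts, scaling by library size or DESeq2 size factors, and leaving out each library or clone were used.

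TP53I3 and all gene lists were chosen with earlier results of these data known. Genes named were TP53I3 and TRPM2, the 10 genes most correlated with TP53I3, overlapping and nearest tested genes, up to 4 members per p53 list and comparison with the largest absolute change, and members of the reductase and cofactor lists that passed a test; other genes were named after their values were seen. Gene positions came from GENCODE 29 (95.9% of identifiers matched). Lists were described by counts and medians, without a set test. 1 member of the cofactor list is not reported here.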

Additional observations from a re-analysis of the deposited data

Results flagged for a closer look

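Among 36 groups of 4 libraries examined for a single distant value, 2 were found, about as many as chance gives at 1 in 20, so nothing is read from them. In treated Scr libraries TP53I3 was 12.8 CPM in Scr16 doxorubicin replicate 1 and between 22.7 and 23.6 CPM in the other 3. The same library had the fewest reads of all 16 and stood apart over all genes. Untreated Scr libraries had 1 library of higher depth, Scr13 untreated replicate 1 with 25086085 reads.

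The doxorubicin change differed between the labels for CXCL12, by 1.98 on the log2 scale, and for SLIT1, by -0.71, both with an adjusted p of 0.0341 in limma's test (range over the alternatives 0.00024 to 0.398 and 0.000431 to 0.48); the calls were lost in 18 of 28 and 17 of 29 alternatives. SLIT1 changed by 0.41 in Scr and by -0.31 in the libraries labelled TRPM2 KO. TP53I3 differed by 1.66; the gene was chosen for this contrast.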

How the results depend on the processing

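TP53I3 under doxorubicin stayed higher in the libraries labelled TRPM2 KO in every alternative run for it, and it kept a positive difference of changes. Those alternatives were other pseudocounts, scaling by library size or DESeq2 size factors, and leaving out each library or clone. No value of TP53I3 was taken from the fits with other filters, blocks, edgeR or DESeq2. Leaving out 1 library at a time gave log2 changes of 0.19 to 0.46 in Scr, 1.85 to 2.01 under the KO label, -0.07 to 0.08 between untreated labels, 1.47 to 1.75 between treated labels and 1.46 to 1.75 for the difference of changes; in clones the ranges were 0.52 to 0.64 (Scr13), -0.45 to 0.32 (Scr16), 1.88 to 2.28 (KO11) and 1.55 to 1.98 (KO28). Without clone Scr13 the change of TP53I3 in Scr was -0.062 and the difference of changes 1.98; without clone Scr16 they were 0.58 and 1.34. Only 1 clone then stands for a label, and its libraries are assumed to vary like the others.

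Counts of genes called moved more. With no filter on low genes, 857 were called for doxorubicin in Scr, 368 between untreated labels (7 of them p53 targets), 5 for the difference of changes, and 363, 265, 813 and 685 in clones Scr13, Scr16, KO11 and KO28. DESeq2 called 31 genes for the difference of changes. With clone as a random block 699 genes were called between untreated labels and 1510 between treated labels, against 695 and 1266 in the main fit. Without clone Scr13, 237 genes (28 p53 targets) were called for doxorubicin in Scr, 330 between untreated labels and 5 for the difference of changes; without clone Scr16, 781, 327 (6 p53 targets) and 0. Without clone KO11, 995 were called for doxorubicin under the KO label, 510 (19 p53 targets) between treated labels and 0 for the difference of changes; without clone KO28, 575 between treated labels and 1 for the difference of changes. The cause of these shifts was not tested.

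Leaving out 1 library at a time, calls ranged from 1081 (without Scr13 doxorubicin replicate 1) to 1676 in Scr, 1740 to 2835 under the KO label, 508 to 678 between untreated labels, 814 to 1314 between treated labels and 1 to 4 for the difference of changes, and in clones 260 to 850, 142 to 1197, 417 to 1436 and 421 to 1261; p53 targets called ranged 40 to 43, 46 to 48, 9 to 16, 29 to 40 and 0, and 33 to 39, 30 to 35, 39 to 44 and 38 to 44 in clones. Replicate numbers do not pair the libraries: within clones, deviations of same-numbered libraries correlated at 0.0865, 0.0303, -0.025 and 0.0289. With the replicate block 7 genes were called for the difference of changes. Of 1934 refits of named genes other than TP53I3, 1793 kept their side of the threshold and 141 lost it. Of the 10 genes most like TP53I3, 4 remained with a pseudocount of 0.1 and 0 with untreated libraries alone. Depth limits genes near 3 reads, TRPM2 in Scr among them.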
